A study of Mus musculus with 10 samples.

Results

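Genes that act in cell division were followed here across mouse retinas with and without light damage, to see whether division of cells such as microglia left a trace in whole-retina RNA. The set held 10 genes: Mki67, Top2a, Cdk1, Ccnb1, Ccna2, Pcna, Mcm2, Racgap1, Birc5 and Ccnd1. A gene entered when its symbol was paired with a transcript cluster (the group of probes that reads one gene) of the array, and 8 of the 10 did so, each through a single cluster, among 19505 genes with a symbol. Ccnb1 and Ccnd1 were not analysed here.

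The study compared total retinal RNA from 10 mice on 10 Affymetrix Clariom S mouse arrays, in 5 groups of 2 arrays, each array read as 1 animal. The groups were wild-type mice without light exposure, wild-type mice after high light (15000 lux for 60 min), CLN3-deficient mice without light exposure, light-exposed CLN3-deficient mice given NaCl solution as solvent control, and CLN3-deficient mice given both light and minocycline, a tetracycline antibiotic that dampens microglial reactivity. The CLN3-deficient mice (Cln3Δex7/8) lack exons 7 and 8 of Cln3 in all cells and model juvenile neuronal ceroid lipofuscinosis, a lysosomal storage disease with early loss of vision, and all mice carried the light-sensitive leucine variant of Rpe65. Wild-type mice are labelled as Balb/c in strain and also as littermates, and the study's methods describe mice of both sexes, 8 to 10 weeks old, dark-adapted for 16 h before exposure. The protocol of the minocycline experiment used 10000 lux for 30 min and 45 mg/kg minocycline in 0.9% NaCl, injected intraperitoneally each day from 1 day before exposure, although the labels of the individual retinas give no dose and the series design names high light only. Light in the CLN3-deficient mice was therefore combined with injection, and its dose differed from that of the wild-type mice, so that genotype, dose and injection cannot be told apart after light. The day of sampling after light was not given in the sources used here.

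Background on these genes follows. A dividing cell passes from G1 into S phase, where DNA is copied, and then through G2 into mitosis and cytokinesis. Cyclin D1 (Ccnd1) drives G1 progression. The MCM helicase, of which Mcm2 is a subunit, unwinds DNA at replication origins, and PCNA is the sliding clamp that holds DNA polymerases on their template and also serves DNA repair in cells that do not divide. Cyclin A (Ccna2) and cyclin B (Ccnb1) bind the kinase Cdk1 to take the cell through S phase and into mitosis, topoisomerase II alpha (Top2a) untangles sister chromosomes, survivin (Birc5) belongs to the chromosomal passenger complex, and Racgap1 is part of the centralspindlin complex that positions the cleavage furrow. Ki-67 (Mki67) coats mitotic chromosomes and is the usual stain for cycling cells. Neurons of the mature retina no longer divide, whereas microglia, the resident macrophages of the retina, can multiply after injury, and Müller glia of mammals rarely do so. In a growing cell population most of these genes are transcribed together, through E2F sites in genes of S phase and through CHR elements bound by the DREAM and B-MYB-MuvB complexes in genes of G2 and mitosis.

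The promoters show which of these elements the members have in their sequence. RefSeq promoter windows (GRCm38.p6) were matched for 8 of the 10 genes: Mki67, Top2a, Cdk1, Ccnb1, Pcna, Mcm2, Racgap1 and Birc5. In the 250 bases before the start, read on both strands, CCAAT occurred in 7 of these 8 and in 33.8% of 32851 promoters of the table. The CHR letters TTTGAA or TTCGAA occurred in 4 of the 8, Mki67, Top2a, Cdk1 and Mcm2, and in 17.1% of all promoters. An E2F motif (GCGCGAAA, TTTGGCGC or TTTCCCGC) occurred in 1 of the 8, Cdk1, and in 1.53% of all promoters. TTCGAA reads the same on both strands and was counted once for each. The 5 promoters printed here are those of the genes whose level changed with light (Mki67, Birc5, Racgap1) and of a pair whose level did not pass the test although both hold CCAAT and CHR letters (Top2a, Cdk1). Each run holds the 150 bases next to the annotated gene, at chr7:135716451-135716600, chr11:117849087-117849236, chr15:99651657-99651806, chr11:99024200-99024349 and chr10:69352913-69353062, on the minus strand except for Birc5, with capitals for a motif match in either orientation.
Mki67: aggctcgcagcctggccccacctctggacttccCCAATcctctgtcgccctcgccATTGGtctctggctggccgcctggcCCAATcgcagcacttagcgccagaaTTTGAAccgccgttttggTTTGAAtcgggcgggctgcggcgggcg
Birc5: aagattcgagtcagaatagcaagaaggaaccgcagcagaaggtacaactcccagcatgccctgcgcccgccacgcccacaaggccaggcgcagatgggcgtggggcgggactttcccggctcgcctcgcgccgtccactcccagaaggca
Racgap1: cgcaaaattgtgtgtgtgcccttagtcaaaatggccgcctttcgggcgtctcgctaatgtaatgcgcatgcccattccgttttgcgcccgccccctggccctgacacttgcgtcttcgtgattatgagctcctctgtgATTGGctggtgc
Top2a: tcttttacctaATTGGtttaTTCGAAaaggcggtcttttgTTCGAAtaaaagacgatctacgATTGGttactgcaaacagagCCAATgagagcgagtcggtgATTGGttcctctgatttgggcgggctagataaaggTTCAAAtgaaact
Cdk1: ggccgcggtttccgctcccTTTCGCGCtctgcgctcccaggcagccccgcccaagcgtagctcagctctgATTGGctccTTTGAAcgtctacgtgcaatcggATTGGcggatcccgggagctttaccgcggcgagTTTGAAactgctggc
Mki67 thus showed 3 CCAAT boxes and 2 CHR matches, Racgap1 a single CCAAT box 12 bases before its start, and the Birc5 run none of the letters searched. A match is a description of the sequence and was not tested as a binding site.

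**Figure D1:**
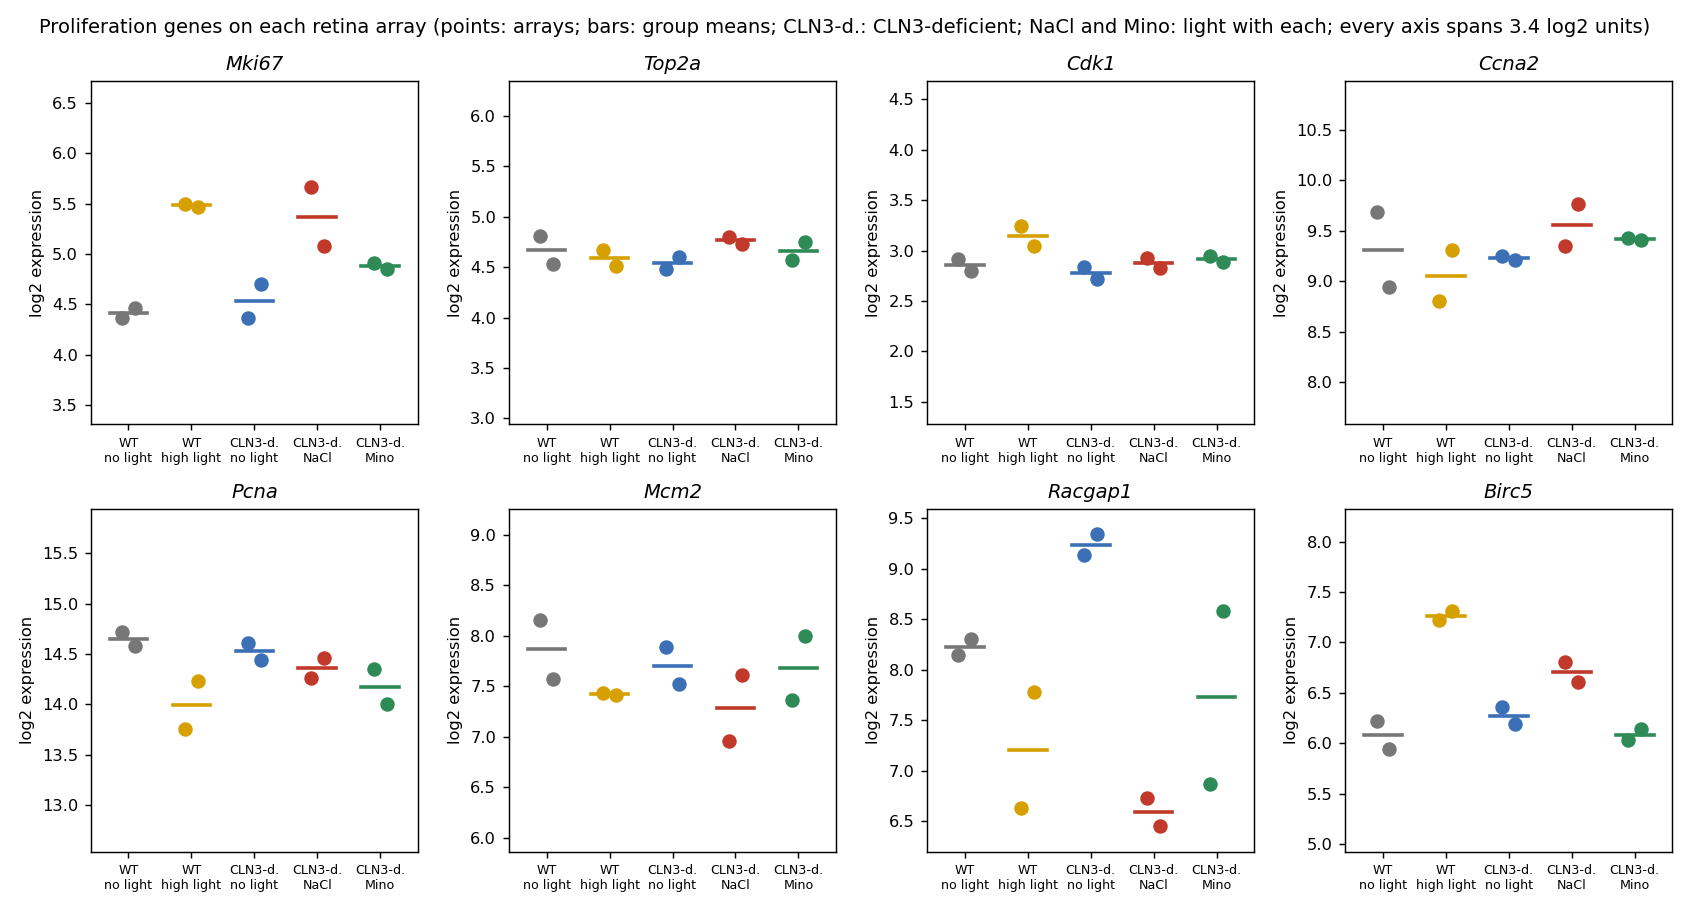
Log2 expression of the 8 measured proliferation genes (vertical axes, each spanning the same number of log2 units) in the 5 groups (horizontal axes), with 1 point per array and a bar at each group mean. Mki67 lay higher on all 4 arrays of light-exposed retinas without minocycline than on the 4 unexposed arrays, Racgap1 lay lower, and Top2a, Cdk1 and Ccna2 passed the test in no comparison.

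The values are log2 expression, so that a difference of 1 is a doubling, and they allow a gene to be compared between arrays but not with another gene. A gene is said to have risen or fallen where limma's moderated test, fitted over all 5 groups, gave a Benjamini-Hochberg adjusted p under 0.05 over the 19505 genes. With 2 arrays against 2, an exact permutation test cannot give a two-sided p below 0.333, so that the calls rest on the variance shared across genes. The p-values measure the spread between these 10 arrays.

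Several properties of the arrays touch the results. Array medians were 7.13 to 7.25, but the first quartile was 4.76 to 4.82 on the unexposed arrays and 4.89 to 5.15 on the exposed ones, so that dim genes as a class read higher after light. The third quartile was 10.46 to 10.53 on the unexposed and 10.16 to 10.32 on the exposed arrays. Bright genes as a class thus read lower after light, and Pcna, Spc25 and Cdkn1b lay above this quartile on every array. Transcripts of the Y chromosome were present on both unexposed wild-type arrays, both NaCl arrays and minocycline array 1 and absent from both high-light wild-type arrays, both unexposed CLN3-deficient arrays and minocycline array 2. Within either genotype, light therefore cannot be told apart from sex, whereas the light effect averaged over the genotypes is balanced for it. Genotype cannot be told apart from sex either, both without light and between the NaCl and high-light groups. The test of genotype by light carries the sex difference too. Unexposed CLN3-deficient array 1 carried skeletal muscle transcripts, with a mean over 11 listed genes of 9.20 against 5.68 to 6.76 on the other 9 arrays. Minocycline array 2 carried pigment epithelium transcripts, with a mean over 11 listed genes of 11.4 against 7.89 to 9.96 on the others. Lens transcripts differed between compared arrays, with a mean over 12 listed genes of 6.98 and 7.43 in unexposed and 5.97 and 5.87 in high-light wild-type retinas, 5.96 and 5.57 in unexposed CLN3-deficient retinas, 7.42 and 6.26 with NaCl and 7.90 and 5.93 with minocycline. After light the lens mean was thus lower in wild-type retinas and, with NaCl, higher in CLN3-deficient retinas, with no overlap of the arrays. Between the genotypes it was lower in CLN3-deficient retinas without light and higher in the NaCl than in the high-light group. The part of lens transcripts in the results was not tested.

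Mki67 rose with light in both genotypes. It was among the dimmest 30% of genes by mean expression, and dim genes as a class read higher after light. Its log2 expression was 4.37 and 4.47 in unexposed wild-type retinas, 5.50 and 5.47 after high light, 4.37 and 4.70 in unexposed CLN3-deficient retinas, 5.66 and 5.08 after light with NaCl, and 4.91 and 4.85 after light with minocycline. The 4 unexposed values lay below all 6 exposed values, and the minocycline values lay between the unexposed and the NaCl values. The unexposed values also lay below the first quartile of their arrays, 4.76 to 4.82. Whether Mki67 was above background was not tested. In wild-type retinas the mean rose from 4.42 ± 0.07 to 5.49 ± 0.02 (SD, n = 2), a 2.09-fold increase (log2 difference 1.06, SE 0.23, limma adjusted p = 0.00738). In CLN3-deficient retinas it rose from 4.54 ± 0.23 to 5.37 ± 0.41, a 1.78-fold increase (log2 difference 0.83, SE 0.23, limma adjusted p = 0.0290). The effects did not differ detectably between the genotypes (difference −0.23, 95% interval −0.94 to 0.48, limma adjusted p = 0.842). The call in CLN3-deficient retinas was lost without unexposed array 1 (0.67, limma adjusted p = 0.206), without unexposed array 2 (1.00, adjusted p = 0.0630), without NaCl array 1 (0.55, adjusted p = 0.228) and after quantile normalization, which gives all arrays the same distribution (0.67, adjusted p = 0.0707). With the presence of Y transcripts as a covariate, whose coefficient rests on the minocycline group as the single one that holds both states, Mki67 was higher by 1.12 in wild-type (limma adjusted p = 0.127) and by 0.78 in CLN3-deficient retinas (limma adjusted p = 0.393), a comparison in which that fit called 0 of all genes. After quantile normalization the wild-type increase was 0.77 (limma adjusted p = 0.0342) and the increase averaged over genotypes 0.72 (adjusted p = 0.00587).

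Birc5 rose after high light in wild-type retinas. Its log2 expression was 6.22 and 5.94 without light and 7.22 and 7.31 after high light in wild-type retinas, and 6.36 and 6.19 without light, 6.81 and 6.61 with NaCl and 6.03 and 6.14 with minocycline in CLN3-deficient retinas. Both high-light arrays exceeded every other array, and the minocycline arrays lay below the unexposed CLN3-deficient ones. The wild-type increase was 2.27-fold (log2 difference 1.19, SE 0.20, limma adjusted p = 0.00270), and with the Y covariate the difference was 1.08 (limma adjusted p = 0.102). In CLN3-deficient retinas the NaCl arrays did not overlap the unexposed ones, but the difference of 0.43 (95% interval −0.0036 to 0.87) did not pass the test (limma adjusted p = 0.162). The difference between the light effects was −0.75 (95% interval −1.37 to −0.13) and did not pass it either (unadjusted p = 0.0220, limma adjusted p = 0.361).

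Racgap1 went the other way and showed the widest range of any member. It read 8.15 and 8.30 in unexposed and 6.63 and 7.78 in high-light wild-type retinas. Among CLN3-deficient retinas the values were 9.14 and 9.34 without light, 6.73 and 6.45 with NaCl and 6.87 and 8.58 with minocycline. The light-exposed arrays lay below the unexposed arrays of their genotype, and the arrays of the high-light and of the minocycline group lay far apart. With NaCl, Racgap1 was 6.28-fold lower than in unexposed CLN3-deficient retinas (log2 difference −2.65, SE 0.47, limma adjusted p = 0.00448), and it passed without any 1 of the 4 arrays (−2.51 to −2.79). With the Y covariate the difference was −0.94 (limma adjusted p = 0.443). In wild-type retinas the difference was −1.02 (SE 0.47, limma adjusted p = 0.132), and −2.73 with the Y covariate (limma adjusted p = 0.0273). That covariate takes its Racgap1 coefficient from the gap between the minocycline arrays, of which array 2 was the one rich in pigment epithelium transcripts, so that sex and this tissue cannot be told apart in both adjusted values. Racgap1 moved opposite to Mki67 and Birc5, although all 3 proteins act in mitosis or cytokinesis.

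The replication genes among the members did not rise. Pcna read 14.72 and 14.58 without light and 13.76 and 14.23 after high light in wild-type retinas, and 14.61 and 14.44 without light, 14.26 and 14.46 with NaCl and 14.35 and 14.00 with minocycline in CLN3-deficient retinas. The high-light arrays lay below the unexposed wild-type arrays, whereas the NaCl arrays overlapped with the unexposed CLN3-deficient ones. The wild-type difference was −0.66 (SE 0.23, limma adjusted p = 0.0533) and the CLN3-deficient one −0.17 (95% interval −0.66 to 0.33). The wild-type difference missed the threshold narrowly and passed it without the dim genes (limma adjusted p = 0.0448) and with trend and robust settings (adjusted p = 0.0231). After quantile normalization it was −0.44 (limma adjusted p = 0.188), and with the Y covariate −0.305 (adjusted p = 0.675). It was −0.42 without high-light array 1 and −0.89 without high-light array 2.

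Mcm2 ranged from 6.96 on NaCl array 1 to 8.16 on unexposed wild-type array 1. Its light effects were −0.45 in wild-type (95% interval −1.10 to 0.21) and −0.42 in CLN3-deficient retinas (95% interval −1.08 to 0.24), with limma adjusted p = 0.292 and 0.377. Neither interval reaches the size of the Mki67 increase in its genotype.

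Top2a, Cdk1 and Ccna2 did not pass the test in any comparison. Top2a read 4.81 and 4.53, then 4.67 and 4.51 in wild-type retinas without and with light, and 4.48 and 4.60 without light, 4.80 and 4.73 with NaCl and 4.57 and 4.75 with minocycline in CLN3-deficient retinas. The wild-type arrays overlapped and the NaCl arrays lay just above the unexposed CLN3-deficient ones. Its light effects were −0.08 in wild-type (95% interval −0.52 to 0.36) and 0.23 in CLN3-deficient retinas (95% interval −0.21 to 0.66). Top2a values lay close to or below the first quartile of their arrays, 4.76 to 5.15. Whether Top2a was above background was not tested.

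Cdk1 read 2.92 and 2.80 without light and 3.24 and 3.04 after high light in wild-type retinas, and 2.84 and 2.72, 2.93 and 2.83, and 2.95 and 2.89 in CLN3-deficient retinas without light, with NaCl and with minocycline. These values lay near the lowest of each array, 2.70 to 2.80, and without a detection call it was not tested whether Cdk1 was above background. The differences of 0.28 in wild-type (95% interval −0.14 to 0.70) and 0.10 in CLN3-deficient retinas (95% interval −0.32 to 0.52) did not pass the test (limma adjusted p = 0.297 and 0.772). Ccna2 ranged from 8.80 on high-light array 1 to 9.77 on NaCl array 2, with light effects of −0.26 (95% interval −0.87 to 0.35) in wild-type and 0.33 (95% interval −0.28 to 0.94) in CLN3-deficient retinas.

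Across the 8 members, light in CLN3-deficient retinas raised 1, where 6.57% of all genes rose, and lowered 1, where 11% fell. High light in wild-type retinas raised 2 and lowered 0, where 10.5% of all genes rose and 15.6% fell. At an unadjusted limma p under 0.05 lay 3 members, Mki67 and Birc5 higher and Pcna lower. Beside them, 3492 of 19505 genes lay higher and 4245 lower at that p. In light averaged over genotypes, with 15.9% of all genes higher and 21.7% lower, Mki67 (log2 difference 0.95, adjusted p = 0.00113) and Birc5 (0.81, adjusted p = 0.00128) rose and Racgap1 fell (−1.83, adjusted p = 0.00163, all limma). The median light effect over the members was 0.16 in CLN3-deficient and −0.17 in wild-type retinas, beside 0.01 and 0.03 over all genes. Mki67 was the sole member that rose in both genotypes.

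**Figure D2:**
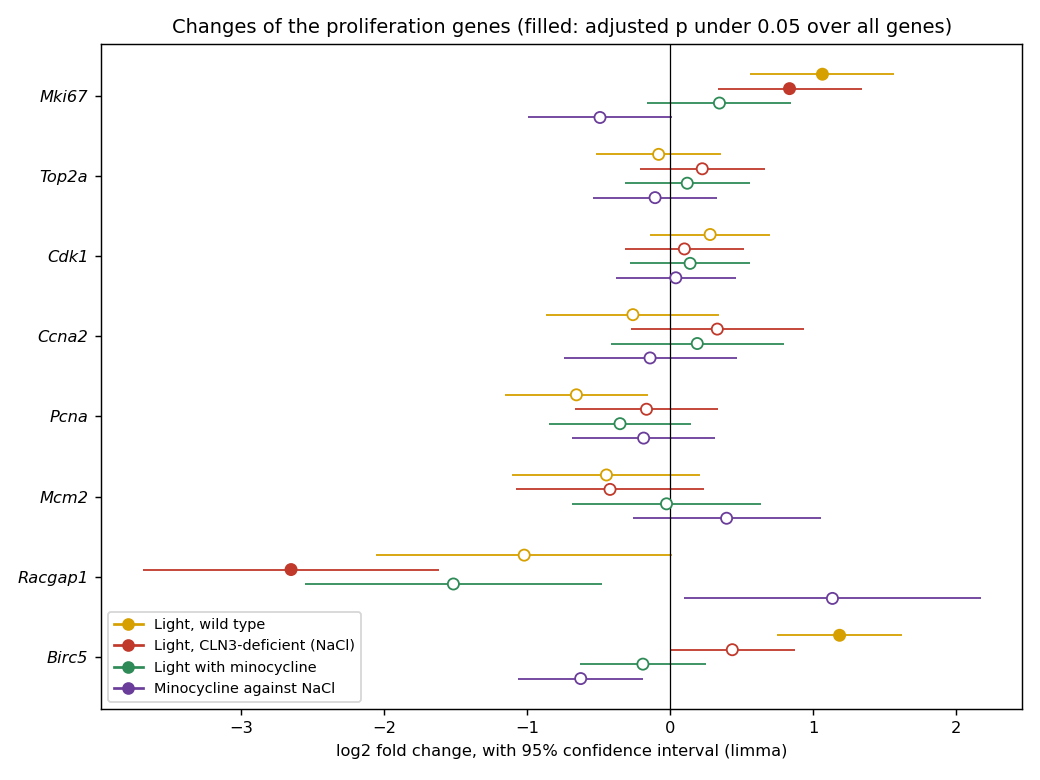
Log2 fold change of each member (horizontal axis) with its 95% confidence interval from limma for light in wild-type retinas, light with NaCl in CLN3-deficient retinas, light with minocycline, and minocycline against NaCl, with filled points where the adjusted p over all genes was under 0.05. Mki67 and Birc5 are filled in wild-type retinas and Mki67 and Racgap1 in CLN3-deficient retinas, and no point is filled for the minocycline comparisons.

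Minocycline against NaCl asked whether treatment shifted these genes after light. The members called numbered 0 of 8, as 0.0154% of all genes were called in either direction. At an unadjusted limma p under 0.05 lay 2 members, Birc5 and Racgap1, beside 543 higher and 734 lower of 19505 genes. Birc5 was lower by 0.63 (95% interval −1.06 to −0.19, unadjusted p = 0.00929, limma adjusted p = 0.553), and its minocycline arrays lay below its NaCl arrays. Mki67 was lower by 0.49 (95% interval −0.99 to 0.01, limma adjusted p = 0.771), also without overlap. Racgap1 was higher by 1.14 (95% interval 0.10 to 2.17, limma adjusted p = 0.740), and by 1.99 when minocycline array 1 was left out. That leaves array 2 alone in its group, which is rich in pigment epithelium transcripts and lacks the Y transcripts of both NaCl arrays. Without minocycline array 2, as with the Y covariate, the difference was 0.28. That tissue and sex cannot be told apart in the Racgap1 value, and the part of either was not tested.

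Light with minocycline, set against unexposed CLN3-deficient retinas, called 0 of 8 members, where 3.77% of all genes rose and 6.74% fell. Mki67 was 1.27-fold higher (log2 difference 0.35, 95% interval −0.16 to 0.85, limma adjusted p = 0.381). The Racgap1 difference was −1.51 (SE 0.47, limma adjusted p = 0.0642). It was −2.37 without minocycline array 2, and −0.66 without minocycline array 1, as it was with the Y covariate. This comparison and light with NaCl share their unexposed arrays.

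No member was called between the genotypes. The compared groups also differed in Y transcripts, so that genotype cannot be told apart from sex in these tests. Without light 0 of 8 were called (0.0461% of all genes) and 0 reached an unadjusted p under 0.05, with Racgap1 nearest, higher in CLN3-deficient retinas by 1.02 (95% interval −0.02 to 2.05, unadjusted p = 0.0540, limma adjusted p = 0.997). After light 0 of 8 were called (0.8% of all genes), and Birc5 was lower in CLN3-deficient retinas by 0.55 (95% interval −0.99 to −0.12, limma adjusted p = 0.215). In the test of genotype by light 0 of 8 were called (0% of all genes). At an unadjusted limma p under 0.05 lay 2 members, Birc5 and Racgap1, the latter at −1.63 (limma adjusted p = 0.394). Of 19505 genes, 1203 lay above and 967 below 0 at that p.

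Among the other cell cycle genes, calls with light were mostly downward, as they were over all genes. The 3 lists, of G1 and S phase entry, DNA replication, and mitosis and cytokinesis, held 93 measured genes besides the members. Light in CLN3-deficient retinas raised 2 and lowered 7 of them, with a median of −0.05, and high light in wild-type retinas raised 3 and lowered 12, with a median of −0.01. Over all genes, light raised 6.57% and lowered 11% in CLN3-deficient retinas, and raised 10.5% and lowered 15.6% in wild-type retinas. The light effects of the genotypes share no arrays, and 7 of the 93 genes were called in the same direction in both, out of 9 in CLN3-deficient and 15 in wild-type retinas. The shared calls over all genes were not counted, so that this overlap says nothing particular about cell cycle genes. The calls in CLN3-deficient retinas dropped to 1 without unexposed array 1, to 3 without unexposed array 2 and to 4 without NaCl array 1, while those over all genes dropped from 3434 to 870, 1367 and 1121. Those in wild-type retinas dropped to 7 and 8 without unexposed array 1 and 2 and to 6 without high-light array 1, while those over all genes dropped from 5081 to 3324, 2749 and 2269. Averaged over genotypes, light raised 7 and lowered 16 of the 93, where 15.9% of all genes rose and 21.7% fell. In the comparison of light with minocycline 3.77% of all genes rose and 6.74% fell. Light with minocycline raised 0 and lowered 7, and the count became 0 without unexposed array 1, 1 without unexposed array 2 and 4 without minocycline array 2, while that over all genes went from 2049 to 86, 348 and 1294.

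Of 29 measured replication genes, light lowered 5 and raised 0 in CLN3-deficient retinas, and lowered 8 and raised 2 in wild-type retinas. Fen1, the flap endonuclease that trims Okazaki fragments, read 8.60 and 8.71 without and 6.42 and 7.09 with high light in wild-type retinas, and 8.79 and 8.12 without light and 6.79 and 6.85 with NaCl in CLN3-deficient retinas. Its log2 differences were −1.90 and −1.64 (limma adjusted p = 0.00188 and 0.00434), with no overlap in either genotype. Mcm4, a partner of Mcm2 in the helicase, fell by 1.02 and 1.04 (adjusted p = 0.00457 and 0.00562), Dut, which keeps uracil out of DNA, by 1.16 and 1.13 (adjusted p = 0.00982 and 0.0150), and Cdc45, which activates the helicase, by 1.11 and 1.06 (adjusted p = 0.0197 and 0.0318). With minocycline the same 4 replication genes fell, Mcm4 by 1.08 and Fen1 by 1.31 (limma adjusted p = 0.00912 and 0.0183). Uhrf1, which guides maintenance DNA methylation, rose in wild-type retinas by 1.04 (limma adjusted p = 0.0301).

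Of 48 measured genes of mitosis and cytokinesis, light raised 1 and lowered 2 in CLN3-deficient retinas, and raised 0 and lowered 3 in wild-type retinas. Averaged over genotypes it raised 4 and lowered 6. At an unadjusted limma p under 0.05, 9 lay higher and 5 lower in CLN3-deficient retinas, beside 2522 and 3638 of all genes. In wild-type retinas 1 lay higher and 5 lower, beside 3492 and 4245 of all genes. With minocycline against NaCl 17 lay above and 31 below 0, with a median of −0.175 beside 0.005 over all genes. Spc25, a subunit of the Ndc80 kinetochore complex, read 13.21 and 13.58 without and 12.05 and 12.10 with high light in wild-type retinas, and 13.69 and 13.51 without light, 11.42 and 12.19 with NaCl and 12.39 and 12.20 with minocycline in CLN3-deficient retinas. All 6 exposed arrays lay below all 4 unexposed ones, and Spc25 fell by 1.32 in wild-type and by 1.79 in CLN3-deficient retinas (limma adjusted p = 0.00513 and 0.00212). Mad2l1, of the spindle checkpoint, fell by 0.95 and 1.03 (limma adjusted p = 0.0105 and 0.0102). Ect2, the exchange factor for RhoA that Racgap1 recruits to the spindle midzone, fell in wild-type retinas by 1.48 (limma adjusted p = 0.00820). Plk1, a kinase of mitotic entry, rose in CLN3-deficient retinas by 1.03 (limma adjusted p = 0.0140), from 5.87 and 5.63 to 7.07 and 6.50.

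Of 16 genes of G1 and S phase entry, Myb, a transcription factor of proliferating progenitors, rose in both genotypes, by 1.40 in wild-type and 1.43 in CLN3-deficient retinas (limma adjusted p = 0.0345 and 0.0421). It read 7.48 and 7.92 without and 9.59 and 8.61 with high light in wild-type retinas, and 7.47 and 7.20 without light and 9.49 and 8.03 with NaCl in CLN3-deficient retinas. Cdc25a, a phosphatase that activates cyclin-dependent kinases, fell in wild-type retinas by 0.70 (limma adjusted p = 0.0441).

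**Figure D3:**
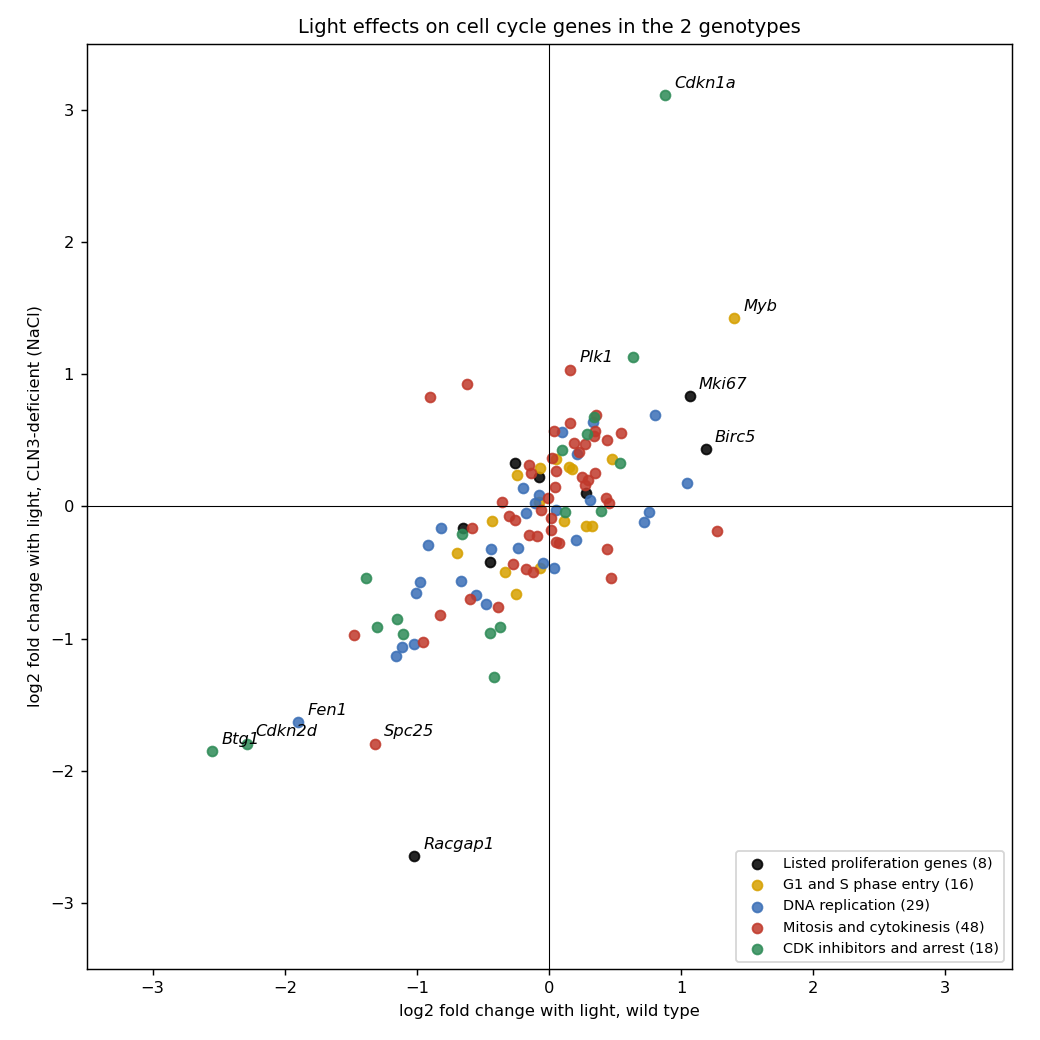
Log2 fold change with light in wild-type (horizontal axis) and CLN3-deficient retinas (vertical axis) for the members and 4 lists of cell cycle genes, 1 point per gene, with several genes labelled. Mki67 and Myb lie high in both genotypes, while Fen1, Spc25, Btg1 and Cdkn2d lie low in both and Cdkn1a rises mainly on the vertical axis.

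Among genes that hold the cell cycle in check, calls with light were also mostly downward, and in wild-type retinas all were. Of 18 measured inhibitors and arrest genes, light raised 2 and lowered 8 in CLN3-deficient retinas, and raised 0 and lowered 6 in wild-type retinas, and averaged over genotypes it raised 4 and lowered 9. Cdkn1a, the p53 target p21, read 5.13 and 5.52 without light, 8.10 and 8.78 with NaCl and 7.30 and 6.56 with minocycline in CLN3-deficient retinas, and 5.10 and 6.09 without and 6.78 and 6.17 with high light in wild-type retinas. It rose by 3.12 with NaCl (limma adjusted p = 0.00130) and by 1.60 with minocycline (adjusted p = 0.0228), and after light its level exceeded that of wild-type retinas by 1.97 (limma adjusted p = 0.0423). Btg1, an antiproliferative factor of resting cells, fell by 2.55 in wild-type and fell by 1.85 in CLN3-deficient retinas (limma adjusted p = 0.000817 and 0.00287). Cdkn2d, an inhibitor of Cdk4 and Cdk6, fell by 2.29 and 1.79 (limma adjusted p = 0.000848 and 0.00250), and Cdkn1b, the inhibitor p27, by 1.30 and 0.92 (adjusted p = 0.00553 and 0.0334). Of 10 measured rod photoreceptor genes, 4 fell in CLN3-deficient and 6 in wild-type retinas, with median light effects of −0.71 and −0.82, and their part in the falls of cell cycle genes was not tested.

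Whether these changes belonged to microglia could not be read from the arrays directly. In RNA from whole retina, a change in the number of cells of a type and a change in the RNA per cell cannot be told apart, nor can the cell of origin. The mean over 18 microglia genes was 6.29 and 7.78 in unexposed and 7.61 and 7.47 in high-light wild-type retinas, and 6.75 and 6.60 without light, 8.42 and 8.21 with NaCl and 7.94 and 6.67 with minocycline in CLN3-deficient retinas. The NaCl arrays were the highest, and unexposed wild-type array 2, with Mki67 at 4.47, lay above both high-light arrays. That array also had the highest mean over 13 Müller glia and astrocyte genes, 12.4 against 11.2 to 12.1 on the other 9, and thus stood apart for glial transcripts beyond those of microglia. Mki67 was highest, at 5.66, on NaCl array 1, which also had the highest microglia mean. Birc5 was highest in the high-light wild-type retinas and, among CLN3-deficient retinas, on the NaCl arrays (6.81 and 6.61). Racgap1 was lowest on a NaCl array. The relation of these genes to the microglia mean was not tested.

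Of the microglia genes, 8 of 18 rose with light in CLN3-deficient retinas (median 1.47) and 2 of 18 in wild-type retinas (median 0.47), and 0 fell in either. Aif1, which encodes the microglial stain Iba1, read 6.17 and 6.93 without light, 9.56 and 9.69 with NaCl and 8.60 and 6.50 with minocycline in CLN3-deficient retinas, a rise of 3.08 with NaCl (limma adjusted p = 0.0208). Csf1, the growth factor on which microglia depend for survival and division, rose by 2.46 in the same comparison (limma adjusted p = 0.00353), from 9.93 and 9.23 to 12.05 and 12.02. Blood-derived cells are another possible source of dividing cells, and the listed leukocyte genes Ms4a4c and Ly6c2 rose with NaCl by 3.80 and 2.96 (limma adjusted p = 0.00180 and 0.00310). Ly6c1 read 9.63 and 9.48 without light and 12.04 and 12.05 with NaCl in CLN3-deficient retinas. In the same groups Ccr2 read 3.72 and 3.31, then 4.13 and 3.93. S100a8 read 4.26 and 4.02, then 3.74 and 4.21, and S100a9 5.52 and 5.40, then 5.38 and 5.35. Of 19 measured leukocyte genes (median light effect 0.13 in CLN3-deficient retinas, 14 above and 5 below 0) 3 rose in each genotype, and 0 of them were shared. In wild-type retinas Ly6c2 read 6.26 and 6.70 without and 6.12 and 5.85 with high light. Of 13 Müller glia and astrocyte genes 2 rose and 1 fell with light in CLN3-deficient retinas, the transcription factor Sox9 rising by 1.64 (limma adjusted p = 0.0303), and 2 fell in wild-type retinas. Of 12 genes of endothelium and pericytes, light raised 1 in CLN3-deficient retinas (Cdh5) and lowered 1 in wild-type retinas (Cldn5). The part of these cell types in the Mki67 values was not tested.

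**Figure D4:**
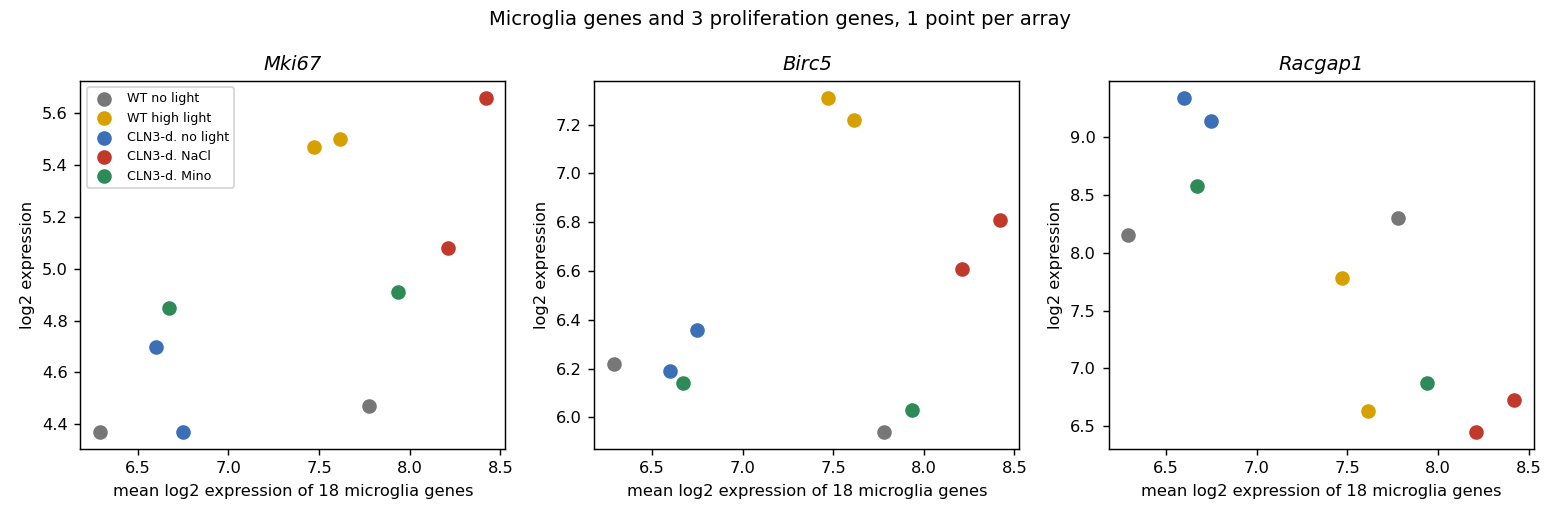
Log2 expression of Mki67, Birc5 and Racgap1 (vertical axes) against the mean log2 expression of 18 microglia genes (horizontal axes), 1 point per array, coloured by group (CLN3-d., CLN3-deficient; NaCl and Mino, light with each). NaCl array 1 holds the highest Mki67 value, 5.66, and the highest microglia mean, 8.42. Unexposed wild-type array 2 lies to the right of the other unexposed arrays, at 7.78, with Mki67 at 4.47. The high-light wild-type arrays hold the top Birc5 values at microglia means of 7.61 and 7.47.

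The genes whose pattern was most like that of Mki67 over the 10 arrays were Krtap5-1 (Pearson r 0.97), Asap2 (0.97), Xlr4a (0.96), Scarf1 (0.96) and Spink4 (0.96), and none of them belonged to a cell cycle list. Among the members, Birc5 followed Mki67 with r = 0.81 and Cdk1 with 0.62, Top2a and Ccna2 stood at 0.23 and −0.15, and Racgap1, Pcna and Mcm2 ran opposite at −0.70, −0.71 and −0.75. These correlations are across 10 arrays that share the light contrast and are given as a description. Members thus moved in both directions along the Mki67 pattern.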

How the data were processed

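RNA from 10 retinas was hybridised to Affymetrix arrays, which the design text and cluster identifiers give as Clariom S, while the study's methods name another mouse array. The deposited values are log2 expression per transcript cluster; the authors ran Affymetrix Expression Console, whose version and normalization algorithm the sources used here do not give. They were used unchanged. Of 22206 clusters, 19572 had 1 symbol, 0 several and 2634 none; the cluster with the highest mean was taken for 55 genes with several, leaving 19505. Groups came from the labels. limma 3.58.1 (lmFit, eBayes; R 4.3.3) was fitted over 5 groups with 8 contrasts, Benjamini-Hochberg over all genes, threshold 0.05, after a test on simulated data. The number of arrays limits the precision.

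All members were named; of each other list and contrast, up to 4 called genes with the smallest p; and the 5 genes with the highest Pearson r with Mki67, predicted genes left out. Genes named beyond these were chosen after their values were seen. The members and all lists were chosen with earlier results of these data known. Alternatives were median centring or quantile normalization of the arrays, a filter on the dimmest 30% of genes, trend and robust moderation, a fit of the compared groups alone, the methods' t-test, their threshold (log2 fold of at least 2, unadjusted p under 0.05), Y transcripts as a covariate and each array left out. A gene with several clusters did not occur among the members, so that alternative gave no value.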

Additional observations from a re-analysis of the deposited data

How the results depend on the processing

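Counts of called genes are given first for the 8 members, then for the 93 other cell cycle genes. For light in CLN3-deficient retinas the members called, 2, became 1 after quantile normalization, 1 without the dim genes (Mki67 is among those left out), 1 at the methods' threshold, 0 by the methods' t-test and 0 with the Y covariate, and 1 to 2 when an array was left out. The other genes, 9, became 16 in a fit of only the groups compared, 0 by the t-test, 0 with the Y covariate and 1 to 7 with an array left out. For light in wild-type retinas the members, 2, became 0 by the t-test, 0 at the methods' threshold and 1 with the Y covariate (Racgap1 in place of Mki67 and Birc5), and 2 to 3 with an array left out. The other genes, 15, became 0 by the t-test, 3 with the Y covariate and 6 to 16 with an array left out. Averaged over genotypes, the members, 3, became 0 at the methods' threshold and 3 to 4 with an array left out, and the other genes, 23, became 11 by the t-test and 15 to 26. For minocycline against NaCl both counts of 0 ranged from 0 to 1 with an array left out. For light with minocycline the members ranged from 0 to 1, and the other genes, 7, became 0 by the t-test and ranged from 0 to 5. For genotype after light the other genes ranged from 0 to 1. Of the values of members never called in any setting, 34 of 599 changed sign. For light in CLN3-deficient retinas the Y covariate called 0 of all genes and the t-test 8, and in wild-type retinas the t-test called 0, so that counts of 0 there say nothing particular about these genes. A group with an array left out rests on 1 array, assumed to vary like the other groups. No paired analysis was possible because no replicate number is shared between groups: the titles carry an animal number each, and 1 title alone ends in a further number.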
